A study of Mus musculus with 12 samples.

Results

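The 8 mouse genes described here encode G protein-coupled receptors that position B cells in lymphoid tissue: the chemokine receptors Cxcr5, Cxcr4, Ccr7, Ccr6 and Ccr9, the oxysterol receptor Gpr183, and the sphingosine-1-phosphate receptors S1pr1 and S1pr4. They were chosen by name, with earlier results of these data known, and all 8 were found among the 56941 genes of the deposited count table. RNA was sequenced from CH12F3-2A, a mouse B lymphoma line that switches from IgM to IgA in culture, in 12 libraries that form 4 groups of 3. The sgNop16_CIT and sgNop16_no cells had received the pX459 plasmid, which carries Cas9, with a guide against Nop16, a gene for a nucleolar protein. The sgCtr_CIT and sgCtr_no cells had received the same plasmid with a non-targeting guide. All 4 groups went through 72 h of puromycin selection. The CIT groups were then given 1 μg/ml of a reagent labelled anti-CD40L, 20 ng/ml of mouse IL-4 and 1 ng/ml of human TGF-β for 24 h, and the other groups were not stimulated. No cloning step is described, so each library is taken to come from a transfected and selected population. The study asked about the part of NOP16 in class switching, and the 2-by-2 layout allows the CIT response to be read with each guide and the guide difference to be read in each state.

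Each receptor couples mainly to inhibitory G proteins and turns a gradient of its ligand into directed movement. CXCR5 leads B cells to CXCL13 in the follicle, CCR7 leads them to CCL19 and CCL21 at the border with the T cell zone, and GPR183 follows oxysterols to the outer follicle. CXCR4 binds CXCL12 and retains cells in the bone marrow and in the dark zone of germinal centres, while CCR6 and CCR9 bind CCL20 and CCL25 and serve mucosal sites. S1PR1 draws lymphocytes out of lymphoid organs into blood and lymph, and S1PR4 is a related receptor of haematopoietic cells. CD40 signals largely through NF-κB, IL-4 through STAT6 and TGF-β through SMAD proteins.

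Windows around annotated transcription starts, 250 bases before to 50 after, were at hand in RefSeq (GRCm38.p6) for 5 of the 8 genes: Ccr6 (2 starts), Ccr9, Cxcr4, Gpr183 and S1pr4. Windows for Ccr7, Cxcr5 and S1pr1 were not matched. The 4 windows printed here belong to the genes whose mRNA was higher with CIT with both guides and that had a window. For Ccr6 only the second of its 2 starts is printed, at chr17:8242276-8242575 on the plus strand. Capitals mark matches to an NF-κB type motif, GGG and CC with any 5 bases between them, searched on both strands, and the other 3 windows hold none. The Cxcr4 window is at chr1:128592250-128592549, that of Gpr183 at chr14:121965144-121965443 and that of S1pr4 at chr10:81500088-81500387, each on the minus strand.
Ccr6: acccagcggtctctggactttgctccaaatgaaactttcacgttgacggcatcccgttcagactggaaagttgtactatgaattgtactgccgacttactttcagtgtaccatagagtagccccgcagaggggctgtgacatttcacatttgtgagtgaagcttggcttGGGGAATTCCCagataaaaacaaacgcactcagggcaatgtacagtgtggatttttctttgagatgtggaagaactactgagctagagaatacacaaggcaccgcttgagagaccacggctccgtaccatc
Cxcr4: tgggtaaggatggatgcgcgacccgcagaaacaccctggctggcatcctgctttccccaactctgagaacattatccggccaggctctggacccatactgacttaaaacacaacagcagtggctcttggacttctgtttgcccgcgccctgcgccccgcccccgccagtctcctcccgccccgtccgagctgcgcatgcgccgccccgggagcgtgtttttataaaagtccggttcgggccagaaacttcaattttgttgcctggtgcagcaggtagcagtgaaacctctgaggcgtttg
Gpr183: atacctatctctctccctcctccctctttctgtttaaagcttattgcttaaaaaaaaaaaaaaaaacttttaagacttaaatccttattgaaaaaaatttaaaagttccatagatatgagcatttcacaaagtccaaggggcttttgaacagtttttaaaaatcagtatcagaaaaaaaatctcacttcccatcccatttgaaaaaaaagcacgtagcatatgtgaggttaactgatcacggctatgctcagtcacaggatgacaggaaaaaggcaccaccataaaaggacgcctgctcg
S1pr4: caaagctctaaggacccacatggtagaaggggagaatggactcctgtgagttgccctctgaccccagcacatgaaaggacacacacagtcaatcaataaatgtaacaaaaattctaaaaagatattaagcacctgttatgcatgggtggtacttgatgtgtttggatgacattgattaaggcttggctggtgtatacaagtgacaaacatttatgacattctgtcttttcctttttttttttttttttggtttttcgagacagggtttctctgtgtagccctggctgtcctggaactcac
The capitals in the second Ccr6 window are 2 overlapping matches, GGGGAATTCC and GGGAATTCCC, whose first bases lie at -81 and -80 from the start. The same motif was in 50.8% of all 32851 mouse windows of 300 bases, so a match is common. The STAT6 type motif, TTC and GAA with any 4 bases between them, was in 6.95% of windows and the SMAD type motif CAGACA in 21.0%, both searched on both strands, and neither was in any of the 4 windows shown. The window of the first Ccr6 start, at chr17:8235793-8236092 and not printed, held no match to any of the 3 motifs. The Ccr9 window held 2 matches to the NF-κB type motif and 1 to CAGACA. The windows differ in base composition: the Cxcr4 window is 59.3% G or C, that of the second Ccr6 start 47.7%, that of S1pr4 41% and that of Gpr183 35.3%, against a median of 52.7% over all windows.

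Library totals lay between 38866418 and 48615177 counts, and the TMM scaling factors between 0.985 and 1.013. Levels below are counts scaled to library size (CPM). Nop16 mRNA was 64.6, 66.3 and 66.2 CPM in the sgNop16_CIT libraries and 78.8, 73.1 and 79.3 CPM in the sgCtr_CIT libraries. Without CIT it was 85.9, 82.4 and 88.6 CPM in sgNop16 cells and 103.6, 107.9 and 107.2 CPM in sgCtr cells. The Nop16 guide thus went with 0.853-fold the sgCtr level under CIT (log2 -0.23 ± 0.04, adjusted p = 0.00455 by edgeR's quasi-likelihood test) and 0.806-fold without it (log2 -0.31 ± 0.04, adjusted p = 0.000563), and most of the mRNA remained. These RNA counts do not measure how much NOP16 protein was left. All 8 B cell markers examined were at 1 CPM or more on average over the 12 libraries. Of 8 T cell markers only Lck reached that level, and of 8 macrophage markers only Csf1r and Cd68 did, with Lyz2, Fcgr1 and C1qa at 0. In sgNop16 cells the summed T cell markers were 183 to 190 CPM with CIT and 209 to 216 without. In sgCtr cells they were 195 to 208 CPM with CIT and 188 to 206 without. The T cell sum was thus lower with the Nop16 guide under CIT and higher without CIT, without overlap. The summed macrophage markers were 15.9 to 18.3 CPM in sgNop16_CIT, 9.32 to 10.7 in sgNop16_no, 11.9 to 15.1 in sgCtr_CIT and 7.40 to 8.49 in sgCtr_no. This sum was higher with CIT and, in both states, with the Nop16 guide, without overlap. Of its genes, Csf1r changed most with CIT, averaging 7.75 CPM in sgNop16_CIT, 1.46 in sgNop16_no, 4.54 in sgCtr_CIT and 0.811 in sgCtr_no. Cd68 did not follow the sum throughout. Its mean in sgNop16_CIT was below the 8.39 CPM of sgNop16_no and the 8.12 CPM of sgCtr_CIT. It was lowest in sgCtr_no, at 6.92 CPM. Of 8 fibroblast markers only Pdgfrb reached 1 CPM, and of 6 erythroid markers only Hba-a1 and Klf1. The summed fibroblast markers were 3.37 to 5.66 CPM in sgNop16_CIT, 1.41 to 2.15 in sgNop16_no, 3.29 to 4.79 in sgCtr_CIT and 1.43 to 2.89 in sgCtr_no, higher with CIT. The summed B cell markers were 4014 to 4111 CPM in sgNop16_CIT, 3958 to 4001 in sgNop16_no, 4265 to 4375 in sgCtr_CIT and 4257 to 4343 in sgCtr_no, and so lower in sgNop16 cells with and without CIT. The part of these marker sums in the results was not tested. The first principal component, with 40.8% of the variance, separated CIT from unstimulated libraries, and the second, with 7.25%, separated the guides.

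The table lists the genes as Cxcr5 (ENSMUSG00000047880), Cxcr4 (ENSMUSG00000045382), Ccr7 (ENSMUSG00000037944), Ccr6 (ENSMUSG00000040899), Ccr9 (ENSMUSG00000029530), Gpr183 (ENSMUSG00000051212), S1pr1 (ENSMUSG00000045092) and S1pr4 (ENSMUSG00000044199). Of the 8 receptor genes, 7 were expressed by the rule of at least 1 CPM in all 3 libraries of a group, and Ccr9 was detected below that level. Ccr9, the receptor for the gut chemokine CCL25, had 183 counts over all 12 libraries and between 0.123 and 0.868 CPM. S1pr4 met the rule in 3 groups, and the other 6 expressed genes met it in all 4. Against the 16794 genes with enough counts to test, Ccr7 had a mean level above 88.8% of genes, Cxcr5 above 86.3% and Cxcr4 above 85.0%. Gpr183 lay above 49.5%, S1pr1 above 42.7%, Ccr6 above 38.8%, S1pr4 above 36.7% and Ccr9 above 13.4%. These are bulk measurements, in which more expressing cells and more RNA per cell cannot be told apart.

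Levels of different genes can be set side by side only per length, here in CPM per kb of annotated exon. Without CIT, Ccr7 came first, at 67.4 ± 0.688 CPM per kb in sgNop16 cells and 57.0 ± 0.911 in sgCtr cells (SD, n = 3 each). Cxcr4 followed at 37.6 ± 1.24 in sgNop16 cells and 35.8 ± 1.39 in sgCtr cells, and Cxcr5 at 21.2 ± 0.277 in sgNop16 cells and 19.3 ± 1.41 in sgCtr cells. The egress receptor S1pr1 was next, at 2.79 ± 0.466 CPM per kb in sgNop16 cells, where its libraries overlapped those of Gpr183, and at 2.54 ± 0.142 in sgCtr cells, where they did not. With CIT the order changed. Cxcr4 stood first at 74.7 ± 1.15 CPM per kb in sgNop16 cells and 71.8 ± 0.616 in sgCtr cells, ahead of Ccr7 at 68.2 ± 0.651 in sgNop16 cells and 63.6 ± 2.86 in sgCtr cells. Gpr183 passed S1pr1, reaching 8.08 ± 0.559 CPM per kb with the Nop16 guide and 7.68 ± 0.115 with the control guide. In sgNop16_CIT, Ccr6 at 3.68, S1pr4 at 2.86 and S1pr1 at 2.29 CPM per kb followed in that order without overlap. In sgCtr_CIT, where Ccr6 was at 3.02, S1pr1 at 2.64 and S1pr4 at 2.61 CPM per kb, the libraries of S1pr1 overlapped those of both neighbours. The lowest in every group was Ccr9, between 0.0208 and 0.055 CPM per kb on average.

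**Figure D1:**
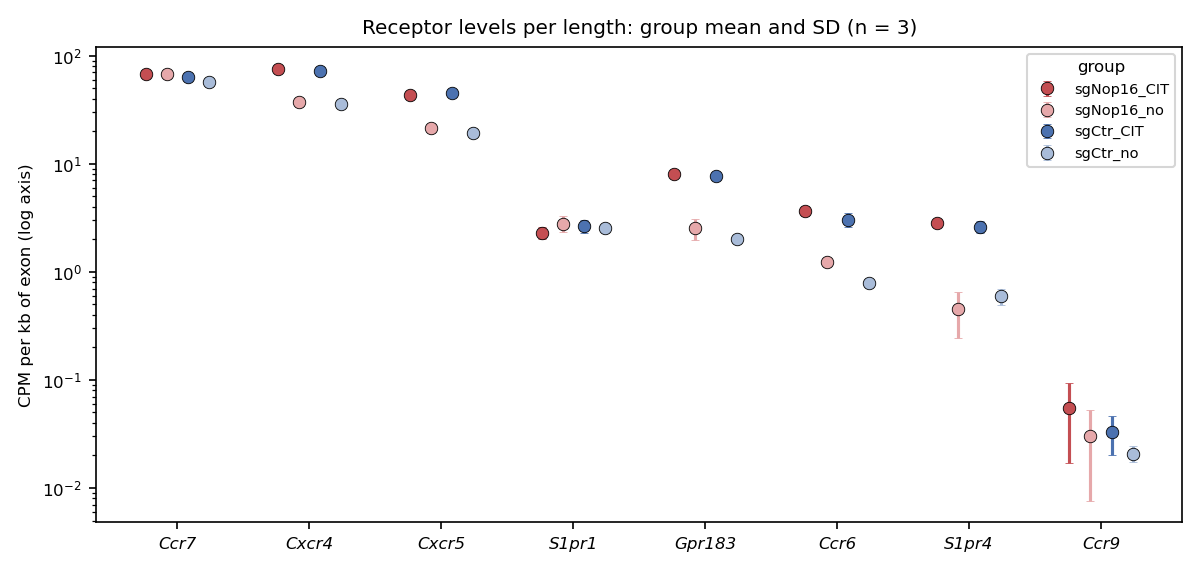
Mean level of each receptor gene in the 4 groups, in CPM per kb of annotated exon on a log axis, with the SD over 3 libraries as bars. Ccr7, Cxcr4 and Cxcr5 lie at 19.3 CPM per kb or more in every group, and Ccr9 at 0.055 or less.

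The CIT cocktail went with higher mRNA for most of these receptors. In sgNop16 cells 5 of the 8 were higher with CIT at an adjusted p under 0.05 (Cxcr5, Cxcr4, Ccr6, Gpr183 and S1pr4), beside 18.9% of all tested genes that were called higher, and 37.0% that were called in either direction. In sgCtr cells the same 5 and Ccr7 were higher, beside 20.4% of all tested genes called higher and 41.4% in either direction. None was called lower with either guide, while 18.2% of tested genes were lower in sgNop16 cells and 20.9% in sgCtr cells. The median log2 difference over the 8 genes was 1.01 in sgNop16 cells and 1.10 in sgCtr cells, against medians over all tested genes of 0.012 in sgNop16 cells and 0.018 in sgCtr cells. Because the receptors were chosen with earlier results of these data known, these counts and medians are a description. All tests are edgeR quasi-likelihood tests with Benjamini-Hochberg adjustment over all tested genes.

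**Figure D2:**
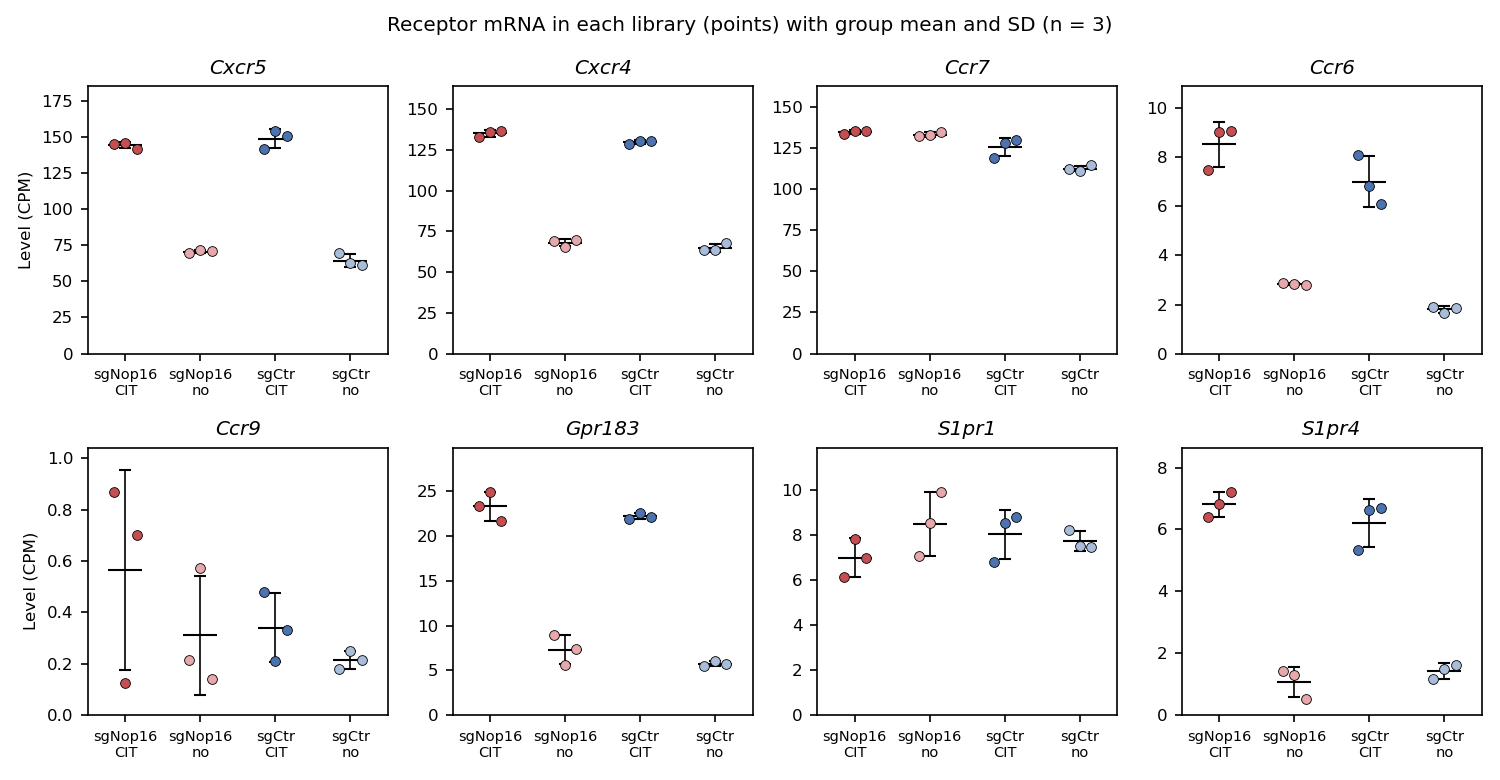
Level of each receptor gene in CPM (linear axes that start at 0) in every library, as points, with the group mean and SD (n = 3). Cxcr5, Cxcr4, Ccr6, Gpr183 and S1pr4 have their CIT libraries above the unstimulated ones with either guide, whereas those of Ccr7 differ little in sgNop16 cells and those of S1pr1 overlap.

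Cxcr5, the follicle receptor, was 145, 146 and 142 CPM in the sgNop16_CIT libraries and 69.7, 71.5 and 70.9 CPM in the sgNop16_no libraries. In sgCtr cells it was 141, 155 and 151 CPM with CIT and 69.8, 62.5 and 61.0 CPM without. With either guide every CIT library was above every unstimulated one. The difference was 2.04-fold in sgNop16 cells (log2 1.03 ± 0.05, SE, adjusted p = 4.36e-11) and 2.31-fold in sgCtr cells (1.21 ± 0.05, adjusted p = 5.6e-12). The exons of Cxcr5 share 110 bases with those of Bcl9l on the opposite strand, and no source at hand gives the strand setting of the counting.

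Cxcr4, the receptor for the retention chemokine CXCL12, was 133, 136 and 137 CPM in sgNop16_CIT and 68.9, 65.5 and 69.7 CPM in sgNop16_no. It was 129, 130.1 and 131 CPM in sgCtr_CIT and 63.4, 63.4 and 67.7 CPM in sgCtr_no. These replicates were tight, and the groups with and without CIT did not overlap. The log2 difference was 0.99 ± 0.04 with the Nop16 guide (adjusted p = 4.71e-12) and 1.00 ± 0.04 with the control guide (adjusted p = 3.92e-12).

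Ccr7, the receptor for the T zone chemokines, was called higher with CIT in sgCtr cells and was not called in sgNop16 cells. It was 133, 136 and 136 CPM in sgNop16_CIT and 132, 133 and 135 CPM in sgNop16_no, where the libraries overlapped and the log2 difference was 0.02 ± 0.04 (adjusted p = 0.777). In sgCtr cells it was 119, 128 and 129.9 CPM with CIT and 113, 111 and 115 CPM without. Those libraries did not overlap, and Ccr7 was 1.12-fold higher with CIT (log2 0.16 ± 0.04, adjusted p = 0.0019). The difference between the CIT responses was itself not called, at a log2 value of -0.14 ± 0.05 (adjusted p = 0.196).

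Ccr6, the CCL20 receptor of mucosal lymphoid tissue, was 7.48, 9.03 and 9.10 CPM in sgNop16_CIT and 2.90, 2.82 and 2.79 CPM in sgNop16_no. It was 8.11, 6.85 and 6.08 CPM in sgCtr_CIT and 1.92, 1.65 and 1.87 CPM in sgCtr_no. All CIT libraries lay above all unstimulated libraries. Ccr6 was 3.01-fold higher with CIT in sgNop16 cells (log2 1.59 ± 0.15, adjusted p = 3.85e-07) and 3.87-fold higher in sgCtr cells (1.95 ± 0.16, adjusted p = 4e-08). For Ccr9 the log2 difference was 0.86 ± 0.74 in sgNop16 cells (adjusted p = 0.426) and 0.66 ± 0.76 in sgCtr cells (adjusted p = 0.553), with the largest SE of the 8 genes in each, and neither was called. In the annotation used for lengths, the exons of Ccr9 share 1932 bases with AC165425.1 on the opposite strand and 269 bases with Gm17200 on the same strand, so its few counts and its length are uncertain.

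Gpr183, the oxysterol receptor, was 23.4, 24.9 and 21.7 CPM in sgNop16_CIT and 8.90, 5.62 and 7.41 CPM in sgNop16_no. It was 21.9, 22.5 and 22.1 CPM in sgCtr_CIT and 5.52, 6.0 and 5.72 CPM in sgCtr_no. The CIT libraries were separate from the unstimulated ones, and the spread was widest in sgNop16_no. The CIT difference was 3.19-fold in sgNop16 cells (log2 1.67 ± 0.13, adjusted p = 2.85e-08) and 3.86-fold in sgCtr cells (1.95 ± 0.13, adjusted p = 4.46e-09).

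Of the 2 sphingosine-1-phosphate receptors, S1pr4 was called higher with CIT and S1pr1 was not called. S1pr4 was 6.41, 6.83 and 7.21 CPM in sgNop16_CIT and 1.42, 1.29 and 0.516 CPM in sgNop16_no. It was 5.33, 6.64 and 6.70 CPM in sgCtr_CIT and 1.15, 1.49 and 1.63 CPM in sgCtr_no. The CIT libraries were all above the unstimulated ones, by 6.31-fold in sgNop16 cells (log2 2.66 ± 0.27, adjusted p = 8.17e-07) and 4.35-fold in sgCtr cells (2.12 ± 0.27, adjusted p = 6.39e-06), the largest called fold of the 8 genes with each guide. S1pr1, the egress receptor, was 6.13, 7.84 and 6.99 CPM in sgNop16_CIT and 7.06, 8.53 and 9.90 CPM in sgNop16_no. It was 6.79, 8.54 and 8.78 CPM in sgCtr_CIT and 8.23, 7.49 and 7.48 CPM in sgCtr_no. These groups overlapped with either guide, and the log2 differences of -0.28 ± 0.15 in sgNop16 cells (adjusted p = 0.167) and 0.06 ± 0.15 in sgCtr cells (adjusted p = 0.812) were not called.

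**Figure D3:**
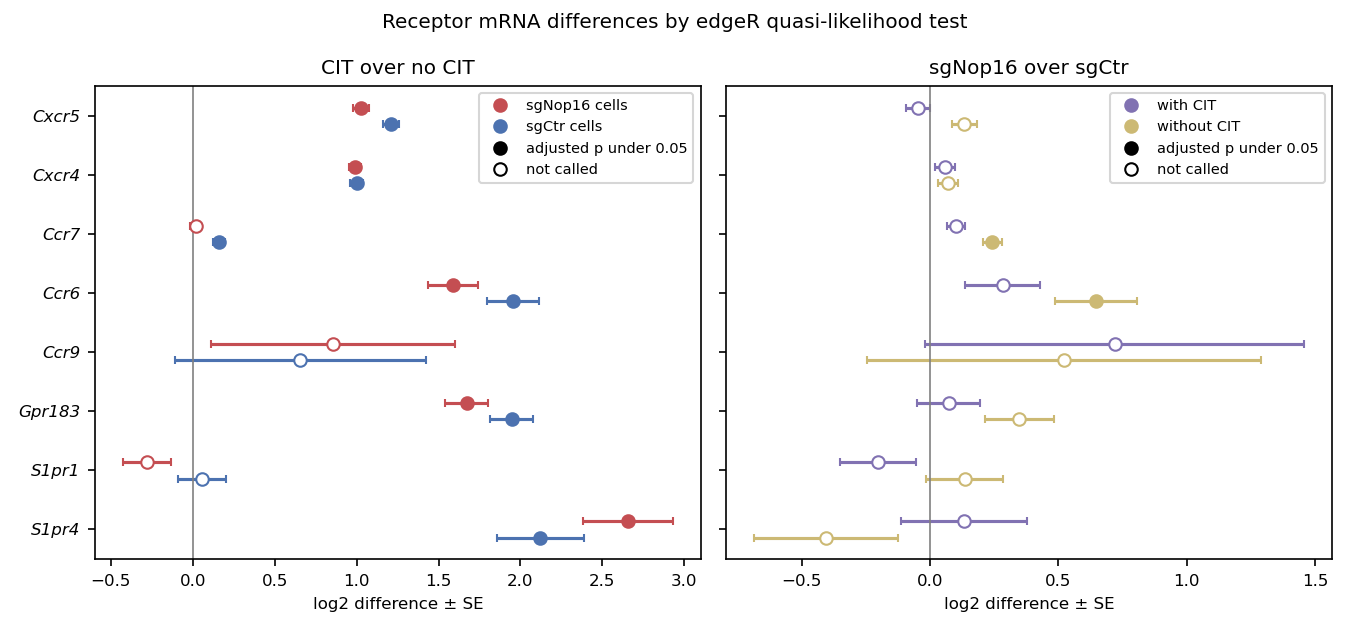
Log2 differences of the 8 receptor genes with SE bars, CIT over no CIT on the left and sgNop16 over sgCtr on the right, filled where the adjusted p is under 0.05. The CIT differences of the 5 genes called with both guides lie between 0.99 and 2.66, and the called guide differences without CIT are 0.24 for Ccr7 and 0.65 for Ccr6.

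The guide against Nop16 went with small differences in the receptors. Without CIT, 2 of the 8 were higher in sgNop16 cells than in sgCtr cells, Ccr7 and Ccr6, and none was lower, beside 1.79% of all tested genes called higher, 1.53% called lower and 3.32% called in either direction. The sgCtr_no libraries serve both in this comparison and in the CIT response of sgCtr cells, so the 2 sets of values are not independent, and each other group is likewise shared by 2 comparisons. Ccr7 at 132 to 135 CPM in sgNop16_no was above every sgCtr_no library, at 111 to 115 CPM, by 1.18-fold (log2 0.24 ± 0.04, adjusted p = 0.00102). Ccr6 at 2.79 to 2.90 CPM in sgNop16_no was above the 1.65 to 1.92 CPM of sgCtr_no, by 1.57-fold (log2 0.65 ± 0.16, adjusted p = 0.0374). The Ccr7 call held in all 21 alternative analyses, whereas that of Ccr6 ended in 13 of the 21, where its adjusted p reached 0.176. It ended without any single one of the 6 unstimulated libraries, without library 2 of sgCtr_CIT and without library 2 or library 3 of sgNop16_CIT.

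The other receptors were not called without CIT, and 4 of the 8 had an unadjusted p under 0.05 there. Cxcr5 had a log2 guide difference of 0.13 ± 0.05 (adjusted p = 0.179) and Gpr183 one of 0.35 ± 0.13 (adjusted p = 0.217). Without library 2 of sgNop16_no, where Gpr183 was lowest, its difference was 0.51 (adjusted p = 0.0289), and without library 1 of sgCtr_no, where Cxcr5 was highest, that of Cxcr5 was 0.20 (adjusted p = 0.0281). Cxcr4 was at 0.07 ± 0.04 (adjusted p = 0.467), S1pr1 at 0.14 ± 0.15 (adjusted p = 0.775) and Ccr9 at 0.52 ± 0.77 (adjusted p = 0.847). S1pr4 stood at -0.41 ± 0.28 (adjusted p = 0.582), the only negative value among the 8 without CIT. The median over the 8 genes was 0.19, against 0.000253 over all tested genes.

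With CIT, none of the 8 was called between the guides by edgeR, beside 3.39% of all tested genes called higher, 2.77% called lower and 6.16% called in either direction. Ccr7 came nearest, at 133 to 136 CPM in sgNop16_CIT and 119 to 129.9 CPM in sgCtr_CIT, which did not overlap (log2 0.10 ± 0.04, adjusted p = 0.12). Its unadjusted p was 0.0123, and DESeq2 gave an adjusted p of 0.0423. Cxcr4 did not overlap either, at a log2 difference of 0.06 ± 0.04 (adjusted p = 0.478). Ccr6 was at 0.28 ± 0.15 (adjusted p = 0.337), Gpr183 at 0.07 ± 0.12 (adjusted p = 0.843) and S1pr4 at 0.13 ± 0.25 (adjusted p = 0.86). Cxcr5 was at -0.05 ± 0.05 (adjusted p = 0.71), S1pr1 at -0.20 ± 0.15 (adjusted p = 0.553) and Ccr9 at 0.72 ± 0.74 (adjusted p = 0.706). Ccr7 was the 1 gene of the 8 with an unadjusted p under 0.05.

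Whether the CIT response differed with the guide was tested by the interaction term, the log2 CIT difference in sgNop16 cells minus that in sgCtr cells. None of the 8 was called, beside 0.881% of all tested genes called with a positive term, 1.25% with a negative one and 2.13% in either direction. After Ccr7, the smallest adjusted p was that of Cxcr5, whose CIT response in sgNop16 cells minus that in sgCtr cells was -0.18 ± 0.07 on the log2 scale (adjusted p = 0.225). For Ccr6 the term was -0.36 ± 0.22 (adjusted p = 0.528), for Gpr183 -0.28 ± 0.18 (adjusted p = 0.586), for S1pr1 -0.34 ± 0.21 (adjusted p = 0.557) and for S1pr4 0.54 ± 0.37 (adjusted p = 0.61). Of the 8 genes, 2 had an unadjusted p under 0.05, Ccr7 and Cxcr5, and DESeq2 called 1, Ccr7, with an adjusted p of 0.0376.

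Other members of the receptor families moved in both directions with CIT. Of 18 further chemokine receptors, 13 were tested, and 5 were higher and 3 lower in sgNop16 cells, against 4 higher and 4 lower in sgCtr cells. The share of all tested genes called in either direction with CIT was 37.0% in sgNop16 cells and 41.4% in sgCtr cells. Ccr4, which binds CCL17 and CCL22, averaged 2.56 CPM with CIT and 0.480 without in sgNop16 cells (log2 2.39 ± 0.43, adjusted p = 0.000287), and 3.85 with and 0.675 without in sgCtr cells (log2 2.50 ± 0.42, adjusted p = 0.000126). The scavenging receptor Ackr2 averaged 2.32 CPM with CIT and 11.8 without in sgNop16 cells (log2 -2.35 ± 0.19, adjusted p = 5.72e-08), and 3.16 with and 11.0 without in sgCtr cells (log2 -1.80 ± 0.19, adjusted p = 7.76e-07). Between the guides, 3.32% of all tested genes were called without CIT and 6.16% with it. Ackr3, which scavenges the CXCR4 ligand CXCL12, was the 1 gene of this list called between the guides. Under CIT it averaged 31.2 CPM in sgNop16 cells and 37.8 CPM in sgCtr cells (log2 -0.28 ± 0.07, adjusted p = 0.0235), a call that ended without library 2 or 3 of sgCtr_CIT or library 2 or 3 of sgNop16_CIT (adjusted p up to 0.0961). It also fell with CIT, on the log2 scale by 0.53 ± 0.07 in sgNop16 cells (adjusted p = 8.81e-06) and by 0.43 ± 0.07 in sgCtr cells (adjusted p = 6.57e-05).

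Among 15 tested receptors of other lipids and related migration signals, 6 were higher and 4 lower with CIT in sgNop16 cells, and 9 were higher and 3 lower in sgCtr cells. These counts stand beside 37.0% of all tested genes called in either direction in sgNop16 cells and 41.4% in sgCtr cells. The remaining expressed sphingosine-1-phosphate receptors moved in opposite directions. S1pr3 averaged 41.9 CPM with CIT and 20.9 without in sgNop16 cells (log2 1.01 ± 0.08, adjusted p = 1.83e-08), and 42.0 with and 15.8 without in sgCtr cells (log2 1.41 ± 0.08, adjusted p = 2.78e-10). S1pr2, the receptor that confines B cells to germinal centres, averaged 6.69 CPM with CIT and 20.7 without in sgNop16 cells (log2 -1.63 ± 0.10, adjusted p = 2.03e-09), and 5.64 with and 19.2 without in sgCtr cells (log2 -1.77 ± 0.10, adjusted p = 6.95e-10). Per kb, S1pr3 was at 9.39 CPM in sgNop16_CIT and 9.42 in sgCtr_CIT, above S1pr1, S1pr2 and S1pr4 in those groups. Without CIT, S1pr3 was higher in sgNop16 than in sgCtr cells, by 0.40 ± 0.08 on the log2 scale (adjusted p = 0.00866), and the lysophosphatidylserine receptor Gpr34 by 0.74 ± 0.18 (adjusted p = 0.0313). The S1pr3 call ended when only the groups compared were fitted (adjusted p = 0.0531). The Gpr34 call ended without any 1 of the 6 unstimulated libraries (adjusted p up to 0.135). With CIT, no gene of this list was called between the guides by edgeR.

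Of 7 genes for chemokine ligands of the receptors, 2 had enough counts to test. Mif, an alternative ligand of CXCR4, averaged 322 CPM with CIT and 415 without in sgNop16 cells (log2 -0.37 ± 0.03, adjusted p = 1.09e-07), and 277 with and 399 without in sgCtr cells (log2 -0.53 ± 0.03, adjusted p = 9.79e-10). Under CIT it was higher in sgNop16 than in sgCtr cells, by 0.22 ± 0.03 (adjusted p = 0.000603). Ccl25, the ligand of CCR9, averaged 3.23 CPM with CIT and 2.14 without in sgNop16 cells (log2 0.59 ± 0.23, adjusted p = 0.0542), and 3.49 with and 2.16 without in sgCtr cells (log2 0.69 ± 0.23, adjusted p = 0.0225). The Ccl25 call ended without library 3 of sgCtr_CIT or library 1 or 2 of sgCtr_no (adjusted p up to 0.101), and its interaction term was not called (adjusted p = 0.946). The exons of Ccl25 share 204 bases with those of Elavl1 on the opposite strand. Since the strand setting of the counting is not known, its low counts are uncertain.

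In sphingosine-1-phosphate and oxysterol metabolism, 10 of 14 genes were tested, and 2 were higher and 3 lower with CIT in sgNop16 cells, against 1 higher and 2 lower in sgCtr cells. Of all tested genes, 37.0% were called in either direction in sgNop16 cells and 41.4% in sgCtr cells. Sgpl1, the lyase that degrades sphingosine-1-phosphate irreversibly, averaged 271 CPM with CIT and 189.9 without in sgNop16 cells, and 396 with and 207 without in sgCtr cells. It was higher with CIT, on the log2 scale by 0.51 ± 0.03 in sgNop16 cells (adjusted p = 4.39e-09) and by 0.93 ± 0.03 in sgCtr cells (adjusted p = 2.17e-12). Under CIT its log2 difference between sgNop16 and sgCtr cells was -0.55 ± 0.03 (adjusted p = 1.4e-07), and the interaction term was -0.42 ± 0.05 (adjusted p = 0.000233). Plpp1, a lipid phosphate phosphatase of the cell surface, was higher in sgNop16 cells without CIT, at a mean of 23.0 CPM against 15.6 CPM in sgCtr cells (log2 0.56 ± 0.10, adjusted p = 0.00492). The exons of Plpp1 share 452 bases with those of Mtrex on the opposite strand, and the strand setting of the counting is not known.

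Downstream of the receptors, 25 of 27 genes of inhibitory G protein signalling and receptor desensitisation were tested, and 10 were higher and 5 lower with CIT in sgNop16 cells, against 12 higher and 5 lower in sgCtr cells. The share of all tested genes called in either direction was 37.0% in sgNop16 cells and 41.4% in sgCtr cells. Rgs13, a GTPase activator that damps chemokine signals in germinal centre B cells, averaged 94.3 CPM with CIT and 326 without in sgNop16 cells (log2 -1.79 ± 0.06, adjusted p = 2.95e-13), and 84.7 with and 279 without in sgCtr cells (log2 -1.72 ± 0.06, adjusted p = 4.59e-13). Its relative Rgs10 rose with CIT, by 1.83 ± 0.15 in sgNop16 cells (adjusted p = 4.13e-08) and 1.66 ± 0.15 in sgCtr cells (adjusted p = 1.07e-07). Rgs16 was at 6.15 CPM with CIT and 0.107 without in sgNop16 cells, and at 3.34 with and 0.122 without in sgCtr cells. Cd69, whose protein binds S1PR1 and brings it inside the cell, averaged 154 CPM with CIT and 60.6 without in sgNop16 cells (log2 1.34 ± 0.06, adjusted p = 1.02e-11), and 134 with and 52.4 without in sgCtr cells (log2 1.35 ± 0.06, adjusted p = 8.98e-12). Under CIT, Cd69 was higher with the Nop16 guide by 0.20 ± 0.05 (adjusted p = 0.0387). That call ended when any library but library 2 of sgCtr_CIT or library 3 of sgNop16_CIT was left out (adjusted p up to 0.174). Pik3cg, the catalytic subunit of the G protein-activated PI3 kinase, fell by 1.49 ± 0.05 with CIT in sgNop16 cells (adjusted p = 1.22e-12) and by 1.48 ± 0.05 in sgCtr cells (adjusted p = 1.11e-12), on the log2 scale.

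Between the guides, 3 genes of this group were higher and 2 lower in sgNop16 cells without CIT, and 1 was higher and 3 lower with CIT. Of all tested genes, 1.79% were called higher and 1.53% lower without CIT, and 3.39% higher and 2.77% lower with it. The receptor kinase gene Grk2 was lower in both states, at 375 CPM in sgNop16_no against 425 CPM in sgCtr_no (log2 -0.18 ± 0.02, adjusted p = 0.000431) and at 385 CPM in sgNop16_CIT against 427 CPM in sgCtr_CIT (log2 -0.15 ± 0.02, adjusted p = 0.00165). Plcb2, a phospholipase C, was also lower with the Nop16 guide, with log2 differences of -0.31 ± 0.04 without CIT (adjusted p = 0.000337) and -0.26 ± 0.04 with it (adjusted p = 0.000986). Rgs1, which dampens chemokine responses, averaged 8.76 CPM in sgNop16_no and 5.30 CPM in sgCtr_no (log2 0.73 ± 0.15, adjusted p = 0.014), and this call ended without library 2 or 3 of sgCtr_no or library 1 of sgNop16_no (adjusted p up to 0.0693).

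All 20 genes of the migration machinery were tested, and 6 were higher and 9 lower with CIT with each guide. Over all tested genes, 18.9% were called higher and 18.2% lower with CIT in sgNop16 cells, and 20.4% higher and 20.9% lower in sgCtr cells, a background that holds for each list here. Tln1, which links integrins to actin, rose by 0.37 ± 0.03 in sgNop16 cells (adjusted p = 2.22e-08) and by 0.45 ± 0.03 in sgCtr cells (adjusted p = 1.58e-09) on the log2 scale. Rac2, a GTPase of blood cells, fell by 0.57 ± 0.03 in sgNop16 cells (adjusted p = 2.62e-11) and by 0.43 ± 0.03 in sgCtr cells (adjusted p = 7.39e-10). Of 16 tested adhesion genes of homing, 9 were higher and 4 lower with CIT with each guide. The integrin gene Itga4 rose by 0.25 ± 0.03 in sgNop16 cells (adjusted p = 5.34e-06) and by 0.49 ± 0.03 in sgCtr cells (adjusted p = 1.47e-09). On the opposite strand, the exons of Itga4 share 1124 bases with those of Cerkl, and the exons of Tln1 share 360 with those of Creb3. The strand setting of the counting is not known. Itgb1, which encodes a partner chain of the Itga4 product, fell by 1.16 ± 0.03 in sgNop16 cells (adjusted p = 5.3e-15) and by 1.33 ± 0.03 in sgCtr cells (adjusted p = 8.45e-16). Vcam1, the ligand of that pair, was at 11.0 CPM in sgNop16_CIT and 0.0478 CPM in sgNop16_no, and at 5.22 CPM in sgCtr_CIT and 0 in sgCtr_no. Under CIT it was higher with the Nop16 guide (log2 1.07 ± 0.30, adjusted p = 0.0488), but the call ended without any 1 of the 6 CIT libraries (adjusted p up to 0.168). Between the guides, 2 of the migration genes, Msn and Rac2, were higher and none lower in sgNop16 cells without CIT, and 1 was higher and 1 lower with CIT. The log2 differences without CIT were 0.12 ± 0.03 for Msn, which links membrane proteins to actin (adjusted p = 0.0308), and 0.10 ± 0.03 for Rac2 (adjusted p = 0.0427). The Msn call ended in 6 of 21 alternatives, among them leaving out library 3 of sgCtr_no or any of sgNop16_no (adjusted p up to 0.13). The Rac2 call ended in 11, among them leaving out library 1 or 2 of sgCtr_no, any of sgNop16_no, library 1 of sgCtr_CIT, or library 2 or 3 of sgNop16_CIT (adjusted p up to 0.135). For the adhesion genes the counts were 2 higher and 1 lower without CIT, and 2 higher and 3 lower with CIT. Over all tested genes, 1.79% were called higher and 1.53% lower in sgNop16 cells without CIT, and 3.39% higher and 2.77% lower with CIT.

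Of 22 transcription regulators of trafficking genes, 13 were higher and 3 lower with CIT in sgNop16 cells, and 12 were higher and 3 lower in sgCtr cells. Id2, an inhibitor of E proteins, averaged 38.9 CPM with CIT and 4.68 without in sgNop16 cells (log2 3.06 ± 0.08, adjusted p = 3.14e-14), and 36.7 with and 6.26 without in sgCtr cells (log2 2.55 ± 0.08, adjusted p = 2.05e-13). Prdm1, the plasma cell factor, fell by 1.82 ± 0.24 in sgNop16 cells (adjusted p = 1.4e-05) and by 2.26 ± 0.24 in sgCtr cells (adjusted p = 8.89e-07). Without CIT, 2 of the 22 were higher and 1 lower in sgNop16 than in sgCtr cells, and under CIT 5 were higher and 4 lower, beside 1.79% of all tested genes called higher and 1.53% lower without CIT and 3.39% and 2.77% with it. Under CIT, the NF-κB subunit gene Relb was higher with the Nop16 guide, by 0.25 ± 0.04 on the log2 scale (adjusted p = 0.00156). Irf4, a factor of activated B cells and plasma cells, averaged 221 CPM in sgNop16_CIT and 196 CPM in sgCtr_CIT (log2 0.18 ± 0.04, adjusted p = 0.0127), and this call ended without library 1 or 3 of sgCtr_CIT or library 2 of sgNop16_CIT (adjusted p up to 0.0732). Id3, an inhibitor of E proteins like Id2, averaged 51.1 CPM in sgNop16_CIT and 69.7 CPM in sgCtr_CIT (log2 -0.45 ± 0.05, adjusted p = 0.000128). Rel, another NF-κB subunit gene, averaged 226 CPM in sgNop16_CIT and 293 CPM in sgCtr_CIT (log2 -0.38 ± 0.03, adjusted p = 4.83e-06).

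**Figure D4:**
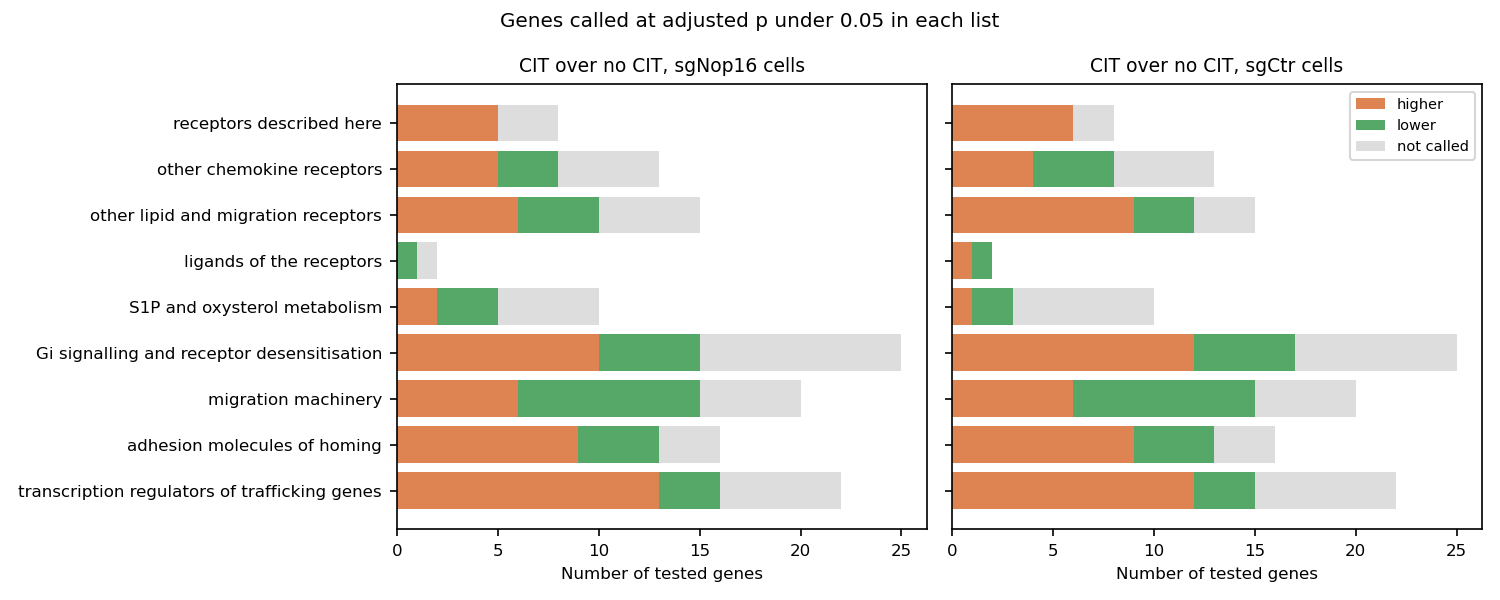
Number of tested genes in each list that were higher, lower or not called with CIT, in sgNop16 cells on the left and sgCtr cells on the right. The 8 receptors have 5 and 6 higher genes and no lower one, whereas the migration machinery has 6 higher and 9 lower genes with each guide.

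Beside the medians over all tested genes of 0.012 in sgNop16 cells and 0.018 in sgCtr cells, the median log2 CIT difference of the other chemokine receptors was -0.06 in sgNop16 cells and 1.00 in sgCtr cells. For the other lipid receptors it was 0.074 in sgNop16 cells and 0.35 in sgCtr cells, for the migration machinery -0.06 in sgNop16 cells and -0.07 in sgCtr cells, and for the adhesion genes 0.30 in sgNop16 cells and 0.41 in sgCtr cells. For sphingosine-1-phosphate and oxysterol metabolism it was -0.04 in sgNop16 cells and 0.21 in sgCtr cells, for the G protein signalling genes 0.044 in sgNop16 cells and 0.08 in sgCtr cells, and for the transcription regulators 0.20 in sgNop16 cells and 0.29 in sgCtr cells. These medians were the same to every digit given when genes at or under 3 fragments of 4 counts in a group were set to that floor. Nothing particular to a list is drawn from them.

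The genes whose log2 levels over the 12 libraries were most like each receptor were sought among 10618 genes, with Pearson's r as a description. Because the CIT and unstimulated libraries form separate clusters, a high r can come from that split alone. For Cxcr4 they were Syngr2, Stx7 and Ski (r = 0.997 each), for Cxcr5 Strip2 (0.998), Lynx1 and Bin1 (0.997 each), for Ccr6 Cpd, Cst3 and Bcl2a1d (0.993 each), for Gpr183 Wdr26, Ptpn12 and Zdhhc13 (0.992 to 0.995) and for S1pr4 Nol4l, Serhl and Rnf165 (0.980 to 0.982). Ccr7, with its level in sgNop16_no near those of the CIT groups, was most like the actin bundling gene Lcp1 (0.952), Smox (0.935) and Gimap5 (0.915). S1pr1, which did not split by CIT, had the lowest values, led by Zfp263 (0.875), Zfat (0.833) and Ddx55 (0.803).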

How the data were processed

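RNA was measured in 12 libraries of total RNA prepared with a directional kit, per the labels' protocols. The submitters' processing notes name HISAT2 2.2.1, StringTie 2.2.1 and the genome build GRCm39; how each was used, and the strand setting, are not given there. The authors deposited estimated counts per Ensembl gene as whole numbers, not scaled to library size. Low values peak at 4 (8845 entries, against 7532 at 3 and 4025 at 5), so 1 fragment may stand for about 4 counts, although no label or header says this. Symbols came from a list of gene names, which gave one for 51948 of the 56941 genes. IDs without a symbol held at most 0.365% of a library. Exon lengths and exon overlaps came from a GRCm38 annotation. No column belonged to another sample, and no 2 libraries were identical.

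Counts were used as deposited. With filterByExpr 16794 genes were kept and tested in edgeR 4.0.16 (R 4.3.3), with TMM factors, 1 mean per group over all 12 libraries and quasi-likelihood tests, adjusted over all tested genes and called at an adjusted p under 0.05. DESeq2 1.42.0 was an alternative, beside other scalings and filters and leaving out each library. The labels call the replicates biological without saying that they came from separate transfections, so p-values measure the spread between these libraries. Each SE of a log2 difference was derived from the test, as the absolute log2 difference divided by the square root of the F statistic. Intervals and SEs rest on counts that are not known to be independent molecules. The receptors, the 8 further lists (142 genes) and the tests were chosen with earlier results of these data known. Genes named from a list are up to 2 called genes with the largest change each way in each comparison, if the higher group had 1 CPM or more; a list with no called gene gave its lowest p.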

Additional observations from a re-analysis of the deposited data

Results flagged for a closer look

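Among 123 tested genes of the 8 further lists, 8 had a CIT response that differed between sgNop16 and sgCtr cells by edgeR's interaction test at an adjusted p under 0.05, beside 2.13% of all 16794 tested genes, and none of the 8 receptors did. In log2, the CIT response in sgNop16 cells minus that in sgCtr cells was -0.42 for Sgpl1, the lyase of sphingosine-1-phosphate, -0.24 for the integrin gene Itga4 and 0.17 for its partner Itgb1. It was -0.18 for Msn, which links membrane proteins to actin. Among transcription regulators it was -0.52 for Irf8, -0.46 for Rel, -0.45 for Id3 and 0.51 for Id2. The exons of Itga4 share 1124 bases with those of Cerkl on the opposite strand, and the strand setting of the counting is not known. The calls of Sgpl1, Itga4, Irf8, Rel and Id3 held in all 20 alternative analyses run for them, while that of Id2 ended in 7 of the 20 (adjusted p up to 0.0723), that of Msn in 8 (up to 0.0856) and that of Itgb1 in 9 (up to 0.0956). Leaving out library 1 of sgCtr_CIT, library 2 of sgNop16_CIT or library 1 of sgNop16_no ended all 3 of these calls. Further libraries ended them one by one: for Id2 library 3 of sgCtr_CIT, library 3 of sgCtr_no and library 1 of sgNop16_CIT. For Msn these were libraries 2 and 3 of sgCtr_CIT and libraries 1 and 3 of sgNop16_CIT, and for Itgb1 library 2 of sgCtr_CIT, any of sgCtr_no, and libraries 2 and 3 of sgNop16_no.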

How the results depend on the processing

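The CIT counts of receptors kept their values of 5 in sgNop16 cells and 6 in sgCtr cells in all 21 alternatives. The count of receptors called between the guides without CIT was 1 in place of 2 with counts divided by 4, with no low-count filter, with only the groups compared and with the replicate number as a block, and 1 to 2 when libraries were left out in turn. With the block, the adjusted p of Ccr6 was 0.0647. Samples that share a number did not deviate together (18 pairs, r from -0.161 to 0.0717), so the numbers were not taken as pairs, and the block changed no other call among the 8 receptors. Of the other genes named, Gpr34 (0.056), Rac2 (0.0573), Cd69 (0.0638) and Vcam1 (0.081) lost their guide calls with the block, by adjusted p. DESeq2 called 1 receptor between the guides with CIT and 1 in the interaction, Ccr7 in both, where edgeR called 0, and also called Cxcr5 without CIT (adjusted p = 0.0452). The interaction count was 0 to 1 when libraries were left out, with Cxcr5 called without library 1 of sgCtr_no (adjusted p = 0.0433). Over all genes, DESeq2 called 1958 between the guides with CIT (edgeR 1034), 1209 without CIT (558) and 1029 in the interaction (358), for which no filter gave 207. With libraries left out the edgeR counts were 617 to 981 with CIT, 352 to 516 without CIT and 215 to 277 in the interaction. Among the receptors, signs turned only for values that were not called, and only when a library was left out. The log2 CIT difference of Ccr7 in sgNop16 cells then lay between -0.00259 and 0.0195, negative also at -0.000605, without library 1 or 2 of sgNop16_no. That of S1pr1 in sgCtr cells lay between -0.0144 and 0.16, negative without library 3 of sgCtr_CIT. The guide difference of Ccr9 without CIT lay between -0.26 and 0.87, negative without library 2 of sgNop16_no. Its interaction lay between -0.25 and 0.97, with further negative values of -0.05, -0.02 and -0.16, without library 2 of sgCtr_CIT, 1 of sgNop16_CIT, or 1 or 3 of sgNop16_no. The causes were not tested. Robust dispersions, an alternative chosen after the data were seen, changed no receptor call. Ccr9 and unstimulated S1pr4 rest on few counts, which limits what can be seen in them.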
